A study of Mus musculus with 2 samples.

Results

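The 36 genes described here are 24 immediate early genes (Fos, Fosb, Fosl2, Jun, Junb, Jund, Egr1, Egr2, Egr3, Atf3, Ier2, Ier3, Ier5, Dusp1, Dusp2, Zfp36, Btg1, Btg2, Klf4, Klf6, Gadd45b, Nfkbia, Socs3 and Maff) and 12 heat shock genes (Hspa1a, Hspa1b, Hspa5, Hspa8, Dnaja1, Dnajb1, Hsp90aa1, Hsp90ab1, Hsph1, Hspe1, Hspd1 and Bag3). They were chosen by gene symbol, with earlier results of these data known, from the 31055 genes of the count matrix. Each symbol was found there. The study profiled immune cells of a mouse melanoma grown from B78ChOVA cells, a transplantable melanoma line, injected under the skin of the flank and harvested 16 days later. The tumour was cut into live sections, spatial barcodes named ZC1, ZC2 and ZC3 were put on regions of them, and the tissue was then dissociated, sorted and captured with 10x Genomics droplets. The data are 1 gene expression library and 1 spatial barcode library of the same cells, with no untreated or other comparison group, so no replicate and no test between conditions was possible. The labels do not give the region behind each barcode, the genotype of the mice, or the number of tumours pooled.

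Immediate early genes are transcribed within minutes of a stimulus from factors already present in the cell. Their products are transcription factors, such as the Fos and Jun subunits of AP-1 and the Egr zinc finger proteins, and feedback inhibitors, such as the phosphatase Dusp1, the mRNA decay factor Zfp36 and the NF-kB inhibitor Nfkbia. Heat shock genes encode chaperones. Hspa1a and Hspa1b are the classical targets of the factor HSF1 under protein damage. Hspa8 and Hsp90ab1 are largely constitutive cytosolic chaperones, Hspa5 serves the endoplasmic reticulum, and Hspd1 and Hspe1 serve mitochondria. Both gene sets are also known to be induced while tissue is cut, dissociated and sorted. Induction in the tumour and induction during handling cannot be told apart in these libraries.

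The 5 promoters are printed because the results turn on these genes: the inducible pair Hspa1a and Hspa1b, Hsph1, with the highest ratio in cells high in that pair, Hspa5, a chaperone with a smaller ratio there, and Zfp36, whose window holds the CArG box of serum response factor. Each line gives the 250 bases before the annotated start, 5′ to 3′ on the strand of the gene, from RefSeq on GRCm38.p6. The windows are chr17:34972157-34972406 on the minus strand for Hspa1a, chr17:34959239-34959488 on the minus strand for Hspa1b, chr5:149636337-149636586 on the minus strand for Hsph1, chr2:34771840-34772089 on the plus strand for Hspa5 and chr7:28379229-28379478 on the minus strand for Zfp36. Capitals mark every match to a searched motif.
Hspa1a: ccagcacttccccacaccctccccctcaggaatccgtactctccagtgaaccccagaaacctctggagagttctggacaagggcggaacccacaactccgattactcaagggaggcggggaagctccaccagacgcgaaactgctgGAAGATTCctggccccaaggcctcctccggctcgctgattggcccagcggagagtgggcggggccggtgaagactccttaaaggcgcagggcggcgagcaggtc
Hspa1b: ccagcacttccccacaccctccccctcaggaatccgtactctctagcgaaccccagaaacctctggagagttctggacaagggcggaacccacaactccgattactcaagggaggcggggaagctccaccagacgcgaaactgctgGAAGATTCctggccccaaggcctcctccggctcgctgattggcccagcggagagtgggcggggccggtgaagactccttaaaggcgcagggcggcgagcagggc
Hsph1: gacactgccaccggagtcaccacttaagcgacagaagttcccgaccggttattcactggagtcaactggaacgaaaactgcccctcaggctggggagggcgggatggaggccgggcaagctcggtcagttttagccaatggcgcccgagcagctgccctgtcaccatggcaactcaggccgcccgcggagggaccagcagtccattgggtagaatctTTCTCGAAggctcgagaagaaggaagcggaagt
Hspa5: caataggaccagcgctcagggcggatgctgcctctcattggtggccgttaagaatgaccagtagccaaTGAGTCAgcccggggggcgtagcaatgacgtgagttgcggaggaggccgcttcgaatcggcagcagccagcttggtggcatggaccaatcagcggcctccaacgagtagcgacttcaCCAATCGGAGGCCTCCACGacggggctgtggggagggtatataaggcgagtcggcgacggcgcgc
Zfp36: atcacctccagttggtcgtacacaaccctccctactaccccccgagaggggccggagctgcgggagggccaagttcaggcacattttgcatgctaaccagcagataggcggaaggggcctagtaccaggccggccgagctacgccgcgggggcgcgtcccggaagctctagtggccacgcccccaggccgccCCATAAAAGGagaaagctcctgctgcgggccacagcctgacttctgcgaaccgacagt

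The motifs were searched on both strands: the heat shock element of HSF1 as GAANNTTC or TTCNNGAA, the cAMP response element as TGACGTCA, the AP-1 site as TGANTCA, the endoplasmic reticulum stress element as CCAAT followed after 9 bases by CCACG, and the CArG box by its usual consensus. Promoters were listed for 30 of the 36 members; Egr1, Egr3, Hsp90aa1, Hsp90ab1, Hspa8 and Ier2 were not matched. Either heat shock element lay in 5 of 9 matched heat shock genes (Dnaja1, Hspa1a, Hspa1b, Hspe1 and Hsph1) and in 2 of 21 matched immediate early genes (Fosl2 and Jun), against 12.8% of 32851 promoter windows of the same length. The stress element lay in Hspa5 and in 0.113% of all windows, and the CArG box in Zfp36 and in 1.47%. The cAMP response element lay in Btg2 and Dusp1 and in 1.55% of windows, and the AP-1 site in Bag3 and Hspa5 and in 6.75%. A match describes letters in the window and is not a measured binding site.

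Of the barcodes, 4236 were kept with at least 1000 gene UMIs (unique molecular identifiers, the counted molecules), at least 500 genes and at most 10% mitochondrial UMIs. Their median depth was 23132 UMIs, with a range of 1027 to 215512. Cells were put into classes by limits on defining marker genes, set after the data were examined. Macrophage-gated cells (2439) carried the complement C1q genes without Ly6c2, and monocyte-gated cells (368) carried Ly6c2 and other monocyte markers without C1q. Intermediate cells (180) carried both. The smaller classes were 223 CD8 T-gated, 83 regulatory T-gated, 87 CD4 T-gated and 67 NK-gated cells, 34 cDC1-gated, 82 cDC2-gated and 43 mature DC-gated dendritic cells, 33 nonclassical monocyte-gated cells and 48 melanoma-gated cells. The C1q genes were at 16302 CPM (summed counts scaled to 1000000 UMIs) in macrophage-gated, 245 in monocyte-gated and 193 in CD8 T-gated cells, against 10620 CPM in the free RNA of near-empty droplets. Ly6c2 was at 541 CPM in CD8 T-gated cells, so it does not mark monocytes alone. Within 1.5 times of a limit lay 96 cells for C1q, 91 C1q-positive cells for Ly6c2 and 103 cells for the CD3 genes. A further 179 cells with CD3 and C1q genes together were kept apart as possible doublets, no doublet caller was run, 340 cells fell in no class, and 18 B-gated and 12 pDC-gated cells were too few to describe. All intervals below are exact at 95% and cover counting error only, not differences between animals or tumours. Those of levels and ratios take each UMI as independent, so they do not cover the spread between cells either.

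All 36 members were detected. Among the AP-1 subunits, Fos was at 601 CPM over all kept cells (66418 UMIs), Fosb at 101 CPM, Fosl2 at 33.8 CPM, Jun at 238 CPM, Junb at 871 CPM and Jund at 403 CPM. Of the zinc finger factors, Egr1 was at 62.8 CPM, Egr2 at 11.5 CPM, Egr3 at 1.73 CPM in only 2.64% of cells, Klf4 at 91.1 CPM and Klf6 at 413 CPM. The bZIP factors Atf3 and Maff were at 314 and 40.4 CPM. These values are levels of each gene and were not set against each other, since UMI capture can differ between genes.

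Of the feedback genes, the phosphatases Dusp1 and Dusp2 were at 345 and 65.4 CPM, the mRNA decay factor Zfp36 at 270.2 CPM, Nfkbia at 582 CPM and the cytokine signalling inhibitor Socs3 at 173 CPM. The antiproliferative genes Btg1 and Btg2 were at 495 and 119 CPM, and the stress gene Gadd45b at 145 CPM. Ier2, Ier3 and Ier5 were at 185, 115 and 239.99 CPM. Among the chaperones, Hspa8 was at 1912 CPM, Hsp90ab1 at 1560.3 CPM, Hsp90aa1 at 609 CPM, Hspa5 at 865 CPM, Hspe1 at 405 CPM and Hspd1 at 227 CPM. The inducible Hspa1a and Hspa1b were at 129 and 86.9 CPM, the HSP40 co-chaperones Dnaja1 and Dnajb1 at 180.3 and 64.8 CPM, the HSP110 nucleotide exchange factor Hsph1 at 28.2 CPM and the co-chaperone Bag3 at 31.2 CPM. Hspa1a and Hspa1b had a UMI in 19.1% and 13.0% of cells, Egr2 in 16.5%, Egr3 in 2.64% and Hspa8 in 99.7%.

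The members were present in free RNA at levels close to those in cells. Summed over the 24 immediate early genes, the level was 5917 CPM in kept cells and 6177 CPM in free RNA, and summed over the 12 heat shock genes it was 6098 and 5688 CPM. Single members had a ratio of kept cells to free RNA between 0.793 (Dusp2) and 1.38 (Btg2). A low level in a class can therefore hold free RNA, and its part was not tested.

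Hspa1a and Hspa1b lie near each other on chromosome 17 and encode nearly the same protein. Their coding sequences were 98.0% identical, and 79.5% of the 60-base words of the Hspa1a coding sequence also occurred in Hspa1b. In the last 400 bases of the transcripts no 60-base word was shared. The split of reads between the pair is therefore uncertain where reads fell in the coding sequence, and their sum is given where it matters.

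The summed immediate early level was highest in the monocyte classes and mature DC-gated cells and lowest in melanoma-gated cells. The summed level of the 24 genes was 13377 CPM in nonclassical monocyte-gated, 10846 in monocyte-gated, 10161 in mature DC-gated, 9561 in NK-gated, 9139 in CD4 T-gated and 8864 CPM in cDC2-gated cells. It was 7739 CPM in intermediate, 7591 in regulatory T-gated, 6467 in CD8 T-gated, 6151 in cDC1-gated, 5197 in macrophage-gated and 3569 CPM in melanoma-gated cells. Among the 12 classes described, melanoma-gated cells had the lowest level of 11 of the 24 genes, nonclassical monocyte-gated cells the highest level of 6 and mature DC-gated cells the highest level of 5. The median gene differed 13.0-fold between its highest and lowest class, with a range of 2.54 (Fosb) to 157 (Egr3). For 20 of the 24 genes this ratio was at least 5. The same counts were not made over all genes, here or for the heat shock genes below. These counts therefore describe the members only.

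The AP-1 genes did not share a pattern. Fos was at 971 CPM (942 to 1001) in monocyte-gated and 967 CPM (846 to 1100) in nonclassical monocyte-gated cells, which overlap, and lowest in CD8 T-gated cells at 139 CPM (126 to 153). Junb was highest in NK-gated cells at 2242 CPM (2117 to 2372), apart from CD4 T-gated cells at 1961 CPM, and lowest in melanoma-gated cells at 377 CPM. Jund was also highest in NK-gated cells, at 1241 CPM, and lowest in macrophage-gated cells at 312 CPM. Fos thus had its lowest level in a lymphocyte class, while Junb and Jund had their highest in NK-gated cells.

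Other factors had a single class far above the next. Klf4, a zinc finger factor of monocyte differentiation, was at 672 CPM (572 to 785) in nonclassical monocyte-gated cells, at 269 CPM in monocyte-gated cells, and lowest in CD8 T-gated cells at 34.3 CPM. Gadd45b was at 1119 CPM (1043 to 1199) in mature DC-gated cells, at 372 CPM in regulatory T-gated cells, and at 9.70 CPM in cDC1-gated cells (9 UMIs). Egr3 was at 41.0 CPM (29.0 to 56.2) in cDC1-gated cells and at 11.2 CPM in NK-gated cells, with 1 UMI in melanoma-gated cells. Mature DC-gated and cDC1-gated cells thus held opposite extremes of Gadd45b.

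Among the feedback genes, Dusp1 at 1046 CPM, Dusp2 at 513 CPM and Zfp36 at 1059 CPM were each highest in nonclassical monocyte-gated cells, and each was lowest in melanoma-gated cells, at 51.6, 10.9 and 78.1 CPM. Nfkbia was highest in mature DC-gated cells at 1769 CPM (1674 to 1869) and lowest in melanoma-gated cells at 141 CPM. Melanoma-gated cells were not low for every member. They had the highest level of Ier3 at 483 CPM (461 to 505), against 3 UMIs, or 5.60 CPM, in NK-gated cells, and the highest level of Egr1 at 151 CPM (139 to 164), against 11.1 CPM in mature DC-gated cells. Their median depth of 80259 UMIs was far above that of the other classes.

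The median heat shock gene varied less between classes than the median immediate early gene. The median gene differed 4.28-fold between its highest and lowest class, from 1.71 (Hspa8) to 103 (Hspa1a), and 5 of 12 reached a ratio of 5. Those were Hspa1a, Hspa1b (20.1, at the floor), Bag3 (9.04), Hsph1 (8.72) and Hspd1 (7.37). The summed level was 10027 CPM in melanoma-gated, 7468 in CD8 T-gated, 6875 in NK-gated, 6485 in monocyte-gated and 5846 CPM in macrophage-gated cells, and lowest at 4438 CPM in nonclassical monocyte-gated cells. Melanoma-gated cells were highest for 5 genes: Hsp90ab1 at 4252 CPM (4187 to 4318), Hsp90aa1 at 1049 CPM, Hspe1 at 710.2 CPM, Hspd1 at 531 CPM and Hsph1 at 84.6 CPM. In each of these 5 the next class was CD8 T-gated cells, with Hsp90ab1 at 2348 CPM. Mature DC-gated cells were lowest for 6 of 12, among them Hspa5 at 397 CPM, against 1029 CPM in cDC1-gated cells.

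The inducible pair went the other way. Hspa1a was at 402.5 CPM (384 to 422) in monocyte-gated cells, 224 in cDC2-gated, 213 in intermediate and 122 CPM in macrophage-gated cells, and at 3.91 CPM (15 UMIs) in melanoma-gated cells. Levels of the pair rest on few cells, the high cells defined below. In cDC2-gated cells 2 of 82 held 92.0% of the UMIs of the pair. Among intermediate cells 13 of 180 held 91.2%, and among monocyte-gated cells 31 of 368 held 95.5%. Hspa1b was at 254 CPM in monocyte-gated cells and had 0 UMIs in 33 nonclassical monocyte-gated cells. With 3 counts as the floor for that class the ratio was 20.1, and its interval began at 16.3. High cells were 0 of these 33, which allows a share of up to 10.6%, against 8.42% in monocyte-gated cells. The 33 cells are thus too few to show a smaller share of high cells. Nonclassical monocyte-gated cells were close to that floor for Hspa1a too, with 1 UMI. The Hspa1a intervals of melanoma-gated (2.19 to 6.44 CPM), nonclassical monocyte-gated (0.106 to 23.4 CPM) and regulatory T-gated cells (2.56 to 13.1 CPM) overlap, so no order among these 3 classes can be read. Melanoma-gated cells thus held little Hspa1a beside the highest levels of Hsp90ab1, Hsp90aa1, Hspe1, Hspd1 and Hsph1.

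**Figure D1:**
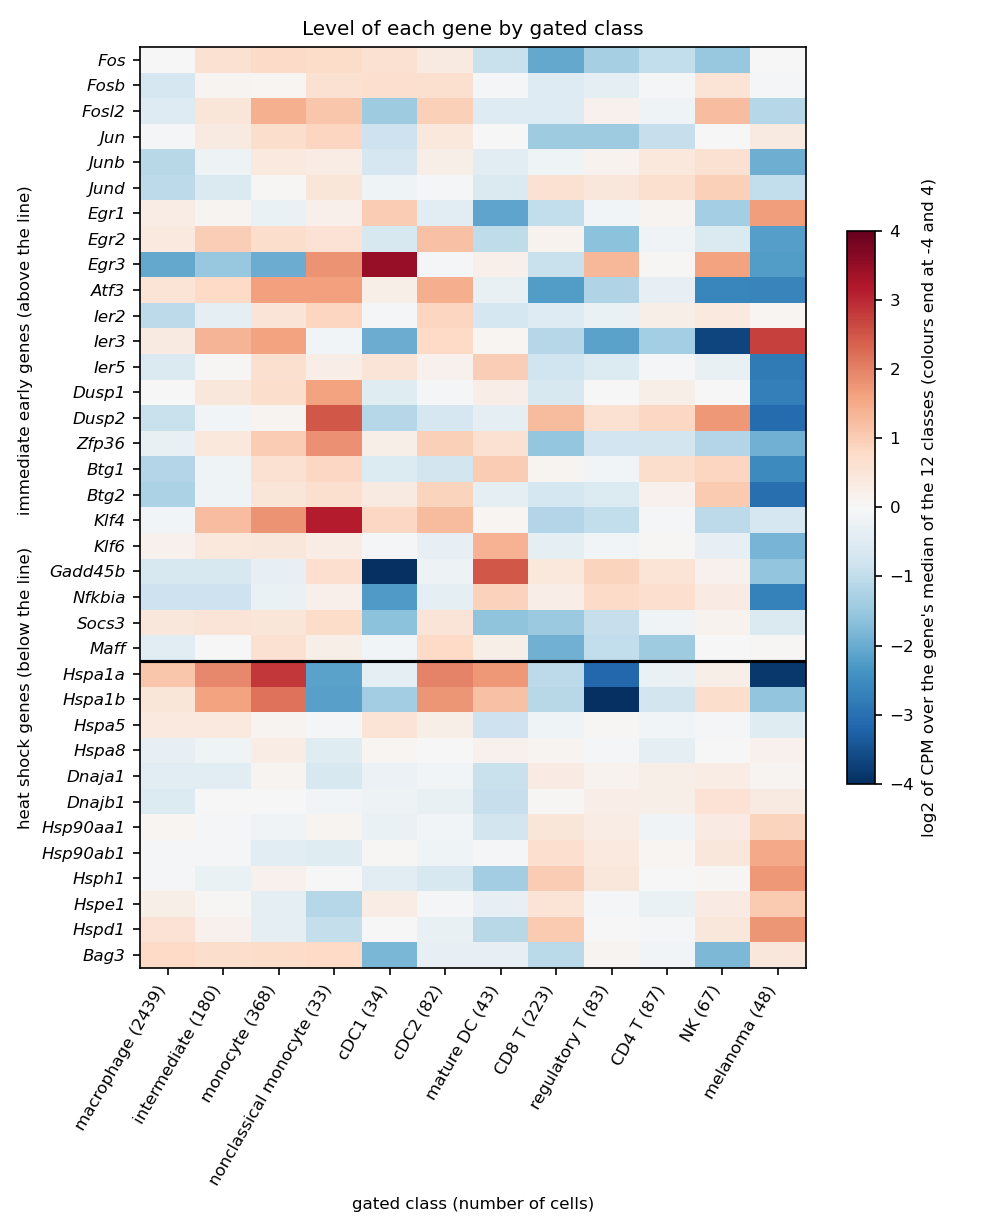
Level of each member (rows) in the 12 gated classes (columns, number of cells in brackets) as log2 of its CPM over the gene's median class; genes with 0 UMIs in a class are drawn at the 3-count floor, and colours end at a log2 of 4 either way. Melanoma-gated cells are blue for most immediate early genes and red for Hsp90ab1, Hsph1 and Hspd1, and Hspa1a is red in monocyte-gated and blue in melanoma-gated cells.

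Macrophage-gated cells held less of most immediate early genes than monocyte-gated cells. Genes entered a comparison if the classes together held at least 30 UMIs of them and the smaller would be due at least 3. A gene was counted as changed in level at a ratio of 2 or more either way. Of the 24 immediate early genes, 12 were at least 2-fold lower in macrophage-gated cells and 0 at least 2-fold higher, where 8.74% of the 11264 genes compared were that much lower and 18.3% that much higher. The median ratio was 0.490 (0.452 to 0.547, the medians of the bounds), against 1.14 over all genes compared.

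The members with the smallest ratios were factors and antiproliferative genes. Fosl2, an AP-1 subunit, was at 26.3 CPM in macrophage-gated and 101 CPM in monocyte-gated cells, a ratio of 0.261 (0.235 to 0.290). Klf4 was at 71.0 and 269 CPM, a ratio of 0.263. Btg1 was at 368 and 1262 CPM, a ratio of 0.292, and its relative Btg2 at 86.7 and 294 CPM, a ratio of 0.295. Junb was at 683 and 1906 CPM, a ratio of 0.358 (0.350 to 0.367). The other members past 2-fold were Ier2 (0.344), Zfp36 (0.402), Ier5 (0.427), Ier3 (0.429), Jund (0.469), Atf3 (0.470) and Maff (0.478). The 3 other named members stood at the other end: Socs3 at 184 against 187 CPM (0.984), Egr3 with 4 UMIs in monocyte-gated cells (0.95, 0.355 to 3.59), and Egr1 at 59.2 against 39.9 CPM, the only ratio above 1 (1.49, 1.28 to 1.74).

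Depth differed between the classes, at a median of 29757 UMIs in macrophage-gated and 10632.5 in monocyte-gated cells. In the lowest tertile of macrophage-gated cells by depth (median 18220 UMIs) the immediate early median was 0.615 with 6 of 23 genes at least 2-fold lower, and in the middle and highest tertiles it was 0.469 and 0.466. Within macrophage-gated cells the summed level was 6786, 5255 and 4627 CPM from the lowest to the highest tertile. The mitochondrial share also differed, at a median of 3.87% in macrophage-gated and 2.76% in monocyte-gated cells. In the lowest, middle and highest tertiles of macrophage-gated cells by that share the summed level was 5763, 5015 and 4899 CPM and the median ratio 0.57, 0.491 and 0.457. The parts of depth and mitochondrial share in the ratio were not tested further.

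The heat shock genes had no common direction between these classes. The median ratio was 0.946 (0.793 to 1.12), against 1.14 over all genes compared. Above 1 lay 6 of 12, against 6802 of all 11264 genes compared, and 2 were at least 2-fold lower. Those were Hspa1a, at 122 against 402.5 CPM (0.302, 0.287 to 0.318), and Hspa1b, at 78.5 against 254 CPM (0.309, 0.290 to 0.330). Most UMIs of this pair lay in 118 of 2439 macrophage-gated and 31 of 368 monocyte-gated cells. The intervals of both ratios are therefore too narrow for the spread between cells. The mitochondrial pair lay highest, with Hspd1 at 231 against 120.3 CPM (1.92, 1.76 to 2.10) and Hspe1 at 404 against 261 CPM (1.55), followed by Hsp90ab1 (1.31). Without the cells highest in Hspa1a and Hspa1b, defined below, the heat shock median was 1.29. Those cells are chosen on Hspa1a and Hspa1b, both members of the list.

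Related genes outside the 36 were listed beside them. Of 9 other immediate early genes compared, 7 were at least 2-fold lower in macrophage-gated cells, with a median of 0.439. The nuclear receptor Nr4a1 was at 8.82 against 118 CPM (0.0749) and Nr4a2 at 10.2 against 57.3 CPM (0.177), while Myc was at 26.2 against 15.6 CPM (1.68). Of 12 feedback and NF-kB genes, 5 were at least 2-fold lower and 1 higher, with Cebpb at 377 against 2128 CPM (0.177) and Dusp4 on few UMIs at 2.21 (0.933 to 6.89). The chaperone lists lay above the median of 1.14 over all genes compared. Their medians were 1.37 over 14 other cytosolic chaperones, 1.48 over 14 unfolded protein response genes and 1.71 over 6 mitochondrial genes. The largest exception was the small heat shock protein gene Hspb1, at 7.46 against 37.8 CPM (0.198). The 10 regulators, among them Srf, Elk1 and Hsf1, had a median of 0.857 with none past 2-fold.

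Macrophages and exhausted CD8 T cells are the pair of cell types named in the title of the study. CD8 T-gated cells differed from macrophage-gated cells member by member. This comparison and the one above share the macrophage-gated cells. Of the 23 immediate early genes compared, 5 were at least 2-fold higher and 9 at least 2-fold lower in CD8 T-gated cells, where 12.2% of all 10965 genes compared were that much higher and 20.1% that much lower. The median ratio was 0.836 (0.640 to 0.937), against 1.02 over all genes. Egr3 had 6 UMIs in CD8 T-gated cells and was not compared.

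The higher members were Dusp2, a nuclear phosphatase of MAP kinases, at 222 against 50.1 CPM (4.44, 4.09 to 4.82), Jund at 992 against 312 CPM (3.18), Btg1 (2.42), Nfkbia (2.14) and Gadd45b (2.07). The lower members were led by Atf3, at 45.9 against 320.04 CPM (0.143, 0.120 to 0.169), and Fos, at 139 against 580.3 CPM (0.239, 0.217 to 0.264). The others were Socs3 (0.259), Ier3 (0.351), Maff (0.362), Jun (0.401), Egr1 (0.412), Zfp36 (0.415) and Klf4 (0.484). Fos and Jun thus lay lower, and Jund higher, in the T cells.

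The heat shock genes had a median ratio of 1.34 (1.29 to 1.38) in CD8 T-gated over macrophage-gated cells. Hsph1 was at 51.5 against 24.6 CPM (2.09, 1.76 to 2.46), the only member at least 2-fold higher. Hspa1a was at 27.1 against 122 CPM (0.222), Bag3 at 9.24 against 33.8 CPM (0.274) and Hspa1b at 26.1 against 78.5 CPM (0.332). With every cell weighted equally, in place of every UMI, the heat shock median was 1.01, so the difference was seen only with deeper cells weighted more. In the related lists, Nr4a2 was at 159 against 10.2 CPM (15.7), Ier5l at 26.7 against 3.40 CPM (7.86), the Ras pathway inhibitor Spry2 at 19.5 against 1.17 CPM (16.7) and Dusp5 at 87.1 against 12.3 CPM (7.08). Rhob (0.161), Cebpd (0.145) and Nfkbiz (0.305) lay lower, and the 14 unfolded protein response genes had a median of 0.685.

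CD8 T-gated cells were divided by whether UMIs of checkpoint and exhaustion markers outnumbered those of naive and memory markers: 130 were checkpoint-high, 79 checkpoint-low and 14 equal. Checkpoint-high cells held less of most immediate early genes and more of most heat shock genes. Their median depth was 12612 UMIs against 5729 and their median mitochondrial share 3.5% against 4.83%. The C1q genes were at 173 against 262 CPM. Ly6c2 was at 285 against 1420 CPM, and the other 5 monocyte markers together at 463 against 475 CPM, with Vcan and Chil3 at 0 UMIs in checkpoint-low cells. The part of these differences in the results below was not tested. Of 22 immediate early genes compared, 4 were at least 2-fold lower and 0 higher, where 5.57% of 7193 genes compared were that much lower and 12.6% higher. The median ratio was 0.693 (0.493 to 1.03), against 1.1 over all genes.

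The 4 lower members were Socs3 at 29.3 against 116 CPM (0.252, 0.178 to 0.356), Atf3 at 31.9 against 103 CPM (0.308), Zfp36 at 83.3 against 170.5 CPM (0.488) and Btg1 at 724 against 1458 CPM (0.497). Gadd45b (298 against 156 CPM, 1.91), Jund (1.38) and Nfkbia (1.18) had the highest ratios. Egr2 and Egr3, with 4 and 0 UMIs in checkpoint-low cells, and Bag3, with 3, were not compared. Zfp36l2 and Zfp36l1, relatives of Zfp36, were at 0.311 and 0.354, and the 11 feedback genes compared had a median of 0.504.

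Of 11 heat shock genes compared, 10 had a ratio above 1, against 4205 of all 7193 genes compared. At least 2-fold higher in checkpoint-high cells were 3, where 12.6% of all genes were. The median was 1.36 (1.2 to 1.62), against 1.1 over all genes. Hspd1 was at 366 against 170.5 CPM (2.14, 1.75 to 2.65). Hspa1a had 80 UMIs against 2 (10.4, 2.78 to 87.0) and Hspa1b 73 against 5 (3.78, 1.55 to 12), but 71 and 67 of those UMIs lay in 3 cells, so both ratios rest on these cells. With cells weighted equally the heat shock median was 1.14, close to the 1.1 over all genes by summed UMIs. The unfolded protein response list had a median of 1.64, with Herpud1 at 2.45 and Pdia6 at 2.13 and Dnajb9, at 39.5 against 115 CPM, at 0.344. The mitochondrial list had a median of 1.68.

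**Figure D2:**
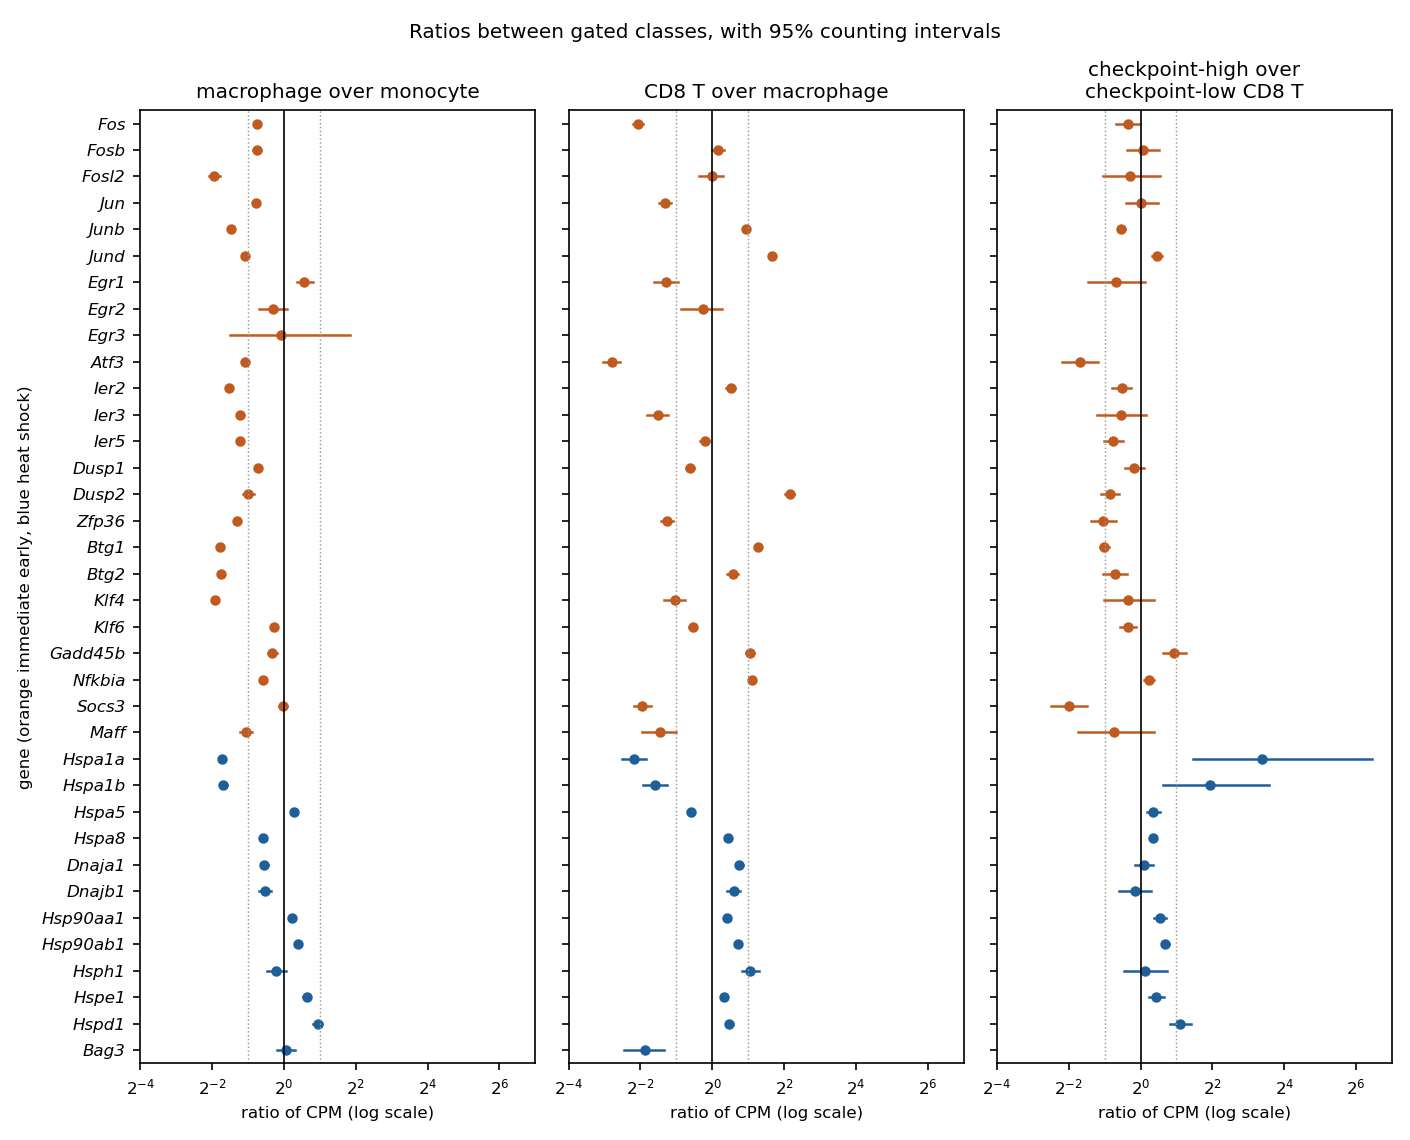
Ratio of CPM of each compared member (points, log axis) with its 95% counting interval (bars) in the 3 class comparisons; orange marks immediate early and blue heat shock genes, and dotted lines mark 2-fold. In the left panel nearly all orange points lie left of 1 while Egr1 lies right of it, and Hspa1a and Hspa1b lie far left in the first 2 panels and right in the third with wide bars.

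Hspa1a and Hspa1b were spread over few cells. In macrophage-gated cells, 1793 of 2439 (73.5%) had no UMI of either gene and 452 had under 250 CPM, while 40 lay from 2000 to under 5000 CPM and 49 at 5000 CPM or more. In monocyte-gated cells 286 of 368 had none, and 17 lay at 5000 CPM or more. With each cell thinned to 5000 UMIs, the 5% of 2366 macrophage-gated cells highest in a gene held 92.9% of the Hspa1a UMIs and 94.8% of the Hspa1b UMIs. This share also reaches 100% for sparse genes spread thinly over cells, as for Egr2 (137 UMIs) and Egr3 (12 UMIs). The variance over the mean (the Fano factor, which is 1 for pure counting) was 26.5 for Hspa1a and 18.7 for Hspa1b, ranks 14 and 19 of 7682 genes. For Egr2 it was 1.25, and among immediate early genes its median was 2.45 and its highest value 4.33. In 360 monocyte-gated cells it was 56.9 for Hspa1a, rank 2 of 2547 genes.

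High cells were defined as those with at least 1000 CPM and at least 3 UMIs of the pair, which is a range and not a cell type. They were 118 of 2439 macrophage-gated cells (4.84%, 4.02 to 5.77) and held 88.1% of that class's Hspa1a and Hspa1b UMIs. Among monocyte-gated cells they were 31 of 368 (8.42%, 5.80 to 11.7) with 95.5% of the UMIs, and among intermediate cells 13 of 180. Only 3 of 223 CD8 T-gated and 0 of 83 regulatory T-gated cells were high, the latter allowing a share of up to 4.35%. In the regulatory T-gated cells 6 had any UMI of the pair, at a median depth of 8399 UMIs. Near the limit, 40 macrophage-gated cells lay from 500 to under 1000 CPM and 29 from 1000 to under 2000. After thinning, 117 of 2366 macrophage-gated and 31 of 360 monocyte-gated cells were high. Free RNA held 244 CPM of the pair, while the cells below the limit held 24.7 CPM in macrophage-gated and 31.6 CPM in monocyte-gated cells.

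**Figure D3:**
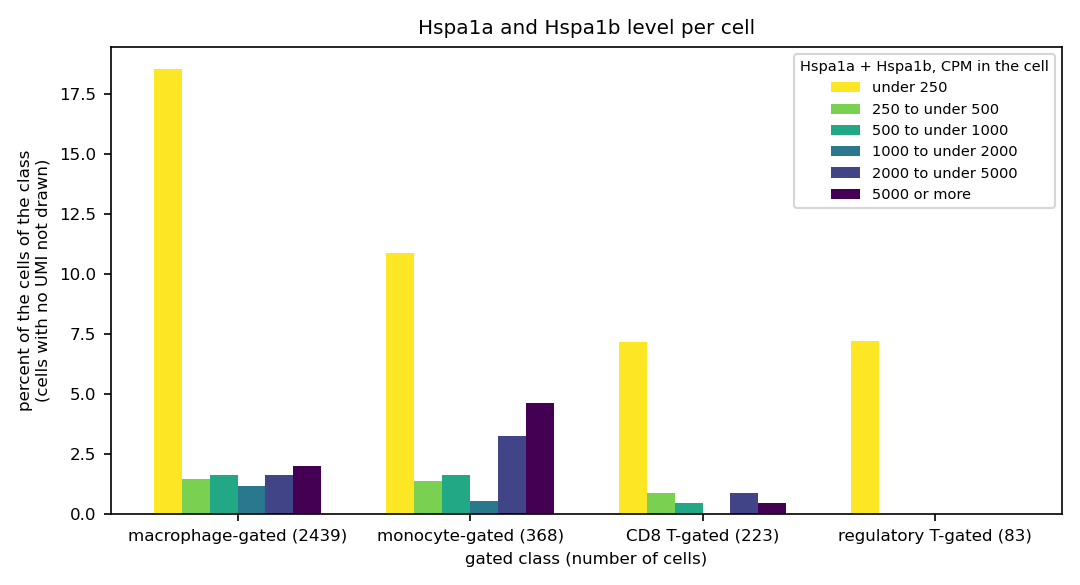
Percent of the cells of 4 gated classes (number of cells in brackets) by summed Hspa1a and Hspa1b CPM in the cell; cells with no UMI are not drawn. Monocyte-gated cells have few cells from 1000 to under 2000 CPM and 17 at 5000 CPM or more, and regulatory T-gated cells have none above 250 CPM.

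The high cells also held more of the other inducible chaperones. Among macrophage-gated cells Hspa1a, which defined the set, was at 2978 against 15.9 CPM, given as a description. Of the 10 heat shock genes not used to define it, 5 were at least 2-fold higher in high cells, where 3.64% of 10747 genes compared were that much higher and 13.8% that much lower, and the median ratio was 2.22 against 0.784 over all genes. Hsph1, with its heat shock element printed above, was at 185 against 18.7 CPM (9.89, 8.92 to 10.9). Hsp90aa1 was at 1838 against 552 CPM (3.33, 3.23 to 3.42), Dnajb1 at 172 against 51.9 CPM (3.31), Bag3 at 93.1 against 31.6 CPM (2.95) and Dnaja1 at 422 against 157 CPM (2.70). Hsp90ab1 (1.17), Hspd1 (1.19) and Hspe1 (1.46) had the lowest ratios, and Hspa5 was at 1.67.

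Some immediate early genes were also higher in them. Of 23 compared, 8 were at least 2-fold higher: Atf3 at 1032 against 294 CPM (3.51, 3.38 to 3.65), Egr2 at 34.9 against 10.2 CPM (3.43), Gadd45b (3.30), Jun at 651 against 212 CPM (3.07), Ier3 (3.03), Klf4 (2.34), Fosl2 (2.16) and Klf6 (2.0). Ier2 (0.864), Junb (1.01), Egr1 (1.09) and Fos (1.29) had the lowest ratios. The high cells therefore held more Jun and Atf3 and nearly the same Junb.

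Among the related genes, Hspb1 stood out at 157 against 1.90 CPM (82.7, 68.3 to 101). Ppp1r15a, which restores translation after stress, was at 365 against 77.7 CPM (4.70), Tnfaip3 at 3.11 and Ddit3 at 2.67. The unfolded protein response list had a median of 0.875 and the mitochondrial list of 0.767, and Hsf1 itself was at 0.659. In monocyte-gated cells, 9 of 10 heat shock genes and 15 of 23 immediate early genes were at least 2-fold higher in the 31 high cells, against 3.6% of 6812 genes. Hsph1 was at 260.1 against 11.3 CPM (23.1, 15.8 to 34.1), Hsp90aa1 at 2368 against 376 CPM (6.29), Jun at 1838 against 286 CPM (6.43) and Fosb at 550.3 against 109 CPM (5.06). Hspb1 was at 537 CPM in high cells and had 1 UMI in the rest.

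High macrophage-gated cells were shallower than the rest, at a median of 21820 against 30357 UMIs, and had a mitochondrial share of 3.42% against 3.89%. Their C1q genes were at 12884 against 16428 CPM, melanoma markers at 101 against 62.4 CPM and CD3 genes with Trac at 7.55 against 16.8 CPM. The share of high cells was 9.23%, 3.44% and 1.85% in the lowest, middle and highest depth tertiles. Within those tertiles the heat shock median of high over other cells was 2.53, 2.0 and 1.90. The immediate early median was 1.54, 1.56 and 1.72, so both stood above 1 in each. High cells held more spatial UMIs than the rest, at medians of 2663 against 2064 in macrophage-gated and 1330 against 848 in monocyte-gated cells. The part of this in the barcode results below was not tested.

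**Figure D4:**
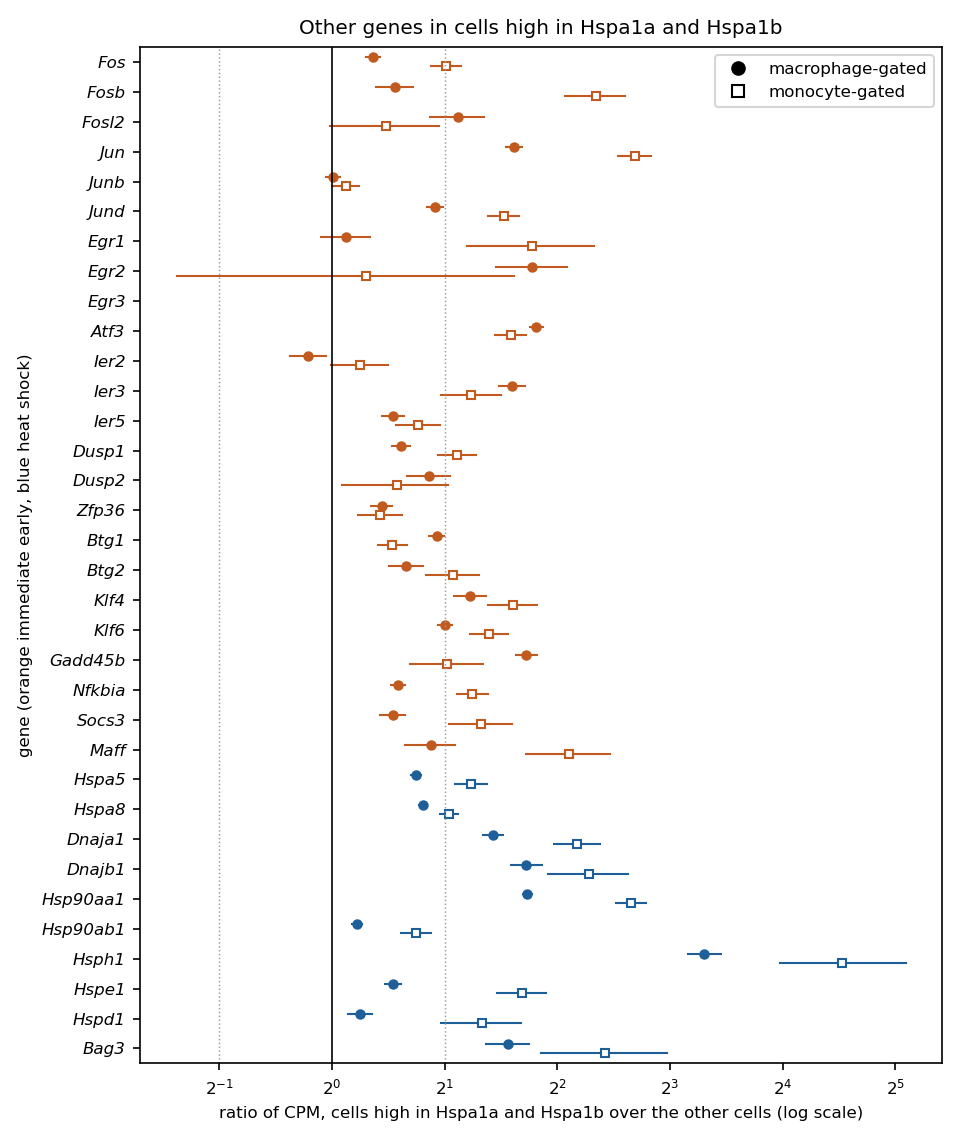
Ratio of CPM in cells high in Hspa1a and Hspa1b over the other cells of the class (log axis) with 95% counting intervals, for macrophage-gated (filled circles) and monocyte-gated cells (open squares); the defining pair is left out. Hsph1 lies farthest right in both classes, and Junb and Ier2 lie near 1.

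Across single cells most pairs of members were only loosely linked, given here as a description over thinned cells of 1 library that share depth and free RNA. In 2366 macrophage-gated cells Pearson's r was 0.82 between Hspa1a and Hspa1b, 0.37 between Hspa1a and Hsph1, 0.38 between Fos and Dusp1 and 0.055 between Fos and Hspa1a. The median over pairs was 0.095 within the immediate early genes, 0.11 within the heat shock genes and 0.0098 between the groups. Pairs between the groups ranged from -0.15 to 0.28, with Atf3 and Hspa1a highest, and Jun with Hspa1a was at 0.25. In 360 monocyte-gated cells the median between the groups was 0.051. The range there was -0.19 to 0.49, with Jun and Hspa1b highest. Low counts limit r for sparse genes such as Egr3 (12 UMIs in macrophage-gated cells). Hspa5 paired with the endoplasmic reticulum chaperone Hsp90b1 at 0.34.

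Macrophage-gated cells with division genes held slightly less of most immediate early genes. Among thinned macrophage-gated cells, 881 had a UMI of the division genes Mki67 or Top2a and 1485 had none. The median ratio was 0.838 over the 24 immediate early genes, 2 of which lay above 1, and 0.956 over the 12 heat shock genes. Hspa1a was at 61.9 against 172 CPM (0.360) and Hspa1b at 33.7 against 116 CPM (0.290), the only members past 2-fold, where 2.22% of 12003 genes were that much lower and 4.17% higher. Egr2 (0.557) was lowest of the immediate early genes, and Hsp90aa1 (1.26) highest of all members. Cells with division genes were deeper, at a median of 37792 against 26392 UMIs. Within the lowest, middle and highest depth tertiles the immediate early median was 0.74, 0.933 and 0.972, and the heat shock median 0.879, 1.02 and 0.982. Over all genes compared it was 1.04, 1.02 and 1.02. Of 23 immediate early genes compared in each tertile, 2, 8 and 8 lay above 1. The sum of Hspa1a and Hspa1b was 214 against 677 CPM in the lowest tertile, 214 against 203 CPM in the middle and 48.4 against 94.1 CPM in the highest, so it was not lower at every depth.

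Spatial barcodes were read in all 4236 kept cells, but ZC3 made up 57.7% of their spatial UMIs and 58.0% of those in free droplets. The other barcodes were as close, at 15% against 15.6% for ZC1 and 27.3% against 26.4% for ZC2. Placing a cell where a barcode had at least 10 counts and 2 times the next left 5 macrophage-gated cells in ZC1 and 10 in ZC2 against 1475 in ZC3. By that rule the ratio of ZC1 over ZC3 had a median of 0.786 (0.388 to 1.21) over 22 immediate early and 0.669 over 12 heat shock genes, where 4.34% of 5144 genes were at least 2-fold higher and 12.3% lower. For ZC2 over ZC3 the medians were 1.40 and 0.840, where 3.98% of 6636 genes were at least 2-fold higher and 10.5% lower. With so few cells, these values are given as a description.

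Cells were therefore also placed by each barcode's count relative to its share in free droplets, with at least 30 spatial UMIs and 1.5 times the next. This put 270 macrophage-gated cells in ZC1, 251 in ZC2 and 693 in ZC3, and 70, 73 and 100 monocyte-gated cells. It names the barcode a cell is enriched for, and free barcode molecules were not removed. Both comparisons below share the ZC3 cells.

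Immediate early genes were higher in ZC1 macrophage-gated cells, the opposite direction from the 5 cells of the absolute rule. Their summed level was 6986 CPM in ZC1, 5181 in ZC2 and 4791 in ZC3. The median cell held 6087, 4606 and 4413 CPM. Of 23 compared, 21 had a ratio of ZC1 over ZC3 above 1, with a median of 1.45 (1.38 to 1.55) against 0.984 over all genes. Of these 3 were at least 2-fold higher, where 3.9% of 10914 genes were: Egr2 at 26.6 against 6.55 CPM (4.06, 3.27 to 5.04), Klf4 at 133 against 57.9 CPM (2.30, 2.12 to 2.50) and Fosb at 149.8 against 70.0 CPM (2.14, 1.98 to 2.31). Socs3 (0.922) and Dusp2 (0.969) were the members below 1.

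ZC1 cells were shallower, at a median of 23992 against 33511 UMIs. Within the lowest, middle and highest depth tertiles the immediate early median was 1.52, 1.23 and 1.35, and without the high cells it was 1.48. The related lists lay beside it, with 4 of 9 other immediate early genes at least 2-fold higher, Nr4a3 at 13.0 against 3.68 CPM (3.53) and Nr4a2 at 19.4 against 6.35 CPM (3.05). For ZC2 over ZC3 the immediate early median was 1.13 and no member passed 2-fold, where 1.97% of 10858 genes were at least 2-fold higher and 1.46% lower. The lowest depth tertile gave 0.868 there, on the other side of 1.

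Heat shock genes did not follow the immediate early genes over the barcodes. In macrophage-gated cells their ZC1 over ZC3 median was 0.955, with 0 of 12 past 2-fold, from Hspd1 at 0.795 to Hspa1b at 111 against 59.4 CPM (1.87). For ZC2 over ZC3 the median was 0.857, and Hspa1a was the only member past 2-fold, at 39.6 against 105 CPM (0.377, 0.333 to 0.426). High cells were 6 of 251 in ZC2 (2.39%, 0.882 to 5.13) and 31 of 693 in ZC3 (4.47%, 3.06 to 6.29). These shares overlap, and the interval of the Hspa1a ratio does not cover the spread between cells. Hspa5 lay at 791, 790 and 969.6 CPM in ZC1, ZC2 and ZC3.

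In monocyte-gated cells the heat shock genes were lower in ZC1 and ZC2 than in ZC3. Of 12, 4 were at least 2-fold lower in ZC1, where 1.69% of 5923 genes were: Hspa1a at 112 against 1035 CPM (0.108, 0.0865 to 0.133), Hspa1b at 96.1 against 627 CPM (0.153), Hsph1 on 11 against 81 UMIs (0.189) and Hsp90aa1 at 383 against 839 CPM (0.457). For ZC2, 5 were lower, where 1.73% of 5839 genes were: Hsph1 on 5 UMIs (0.0836), Hspa1b (0.231), Hspa1a (0.254), Hsp90aa1 (0.428) and Bag3 (0.492). The medians were 0.606 and 0.634. The high cells are chosen on Hspa1a and Hspa1b. They were 4 of 70 in ZC1 (5.71%, 1.58 to 14.0) and 4 of 73 in ZC2 (5.48%, 1.51 to 13.4). In ZC3 they were 18 of 100 (18.0%, 11.0 to 26.9), and this interval overlaps both others. These counts of cells are small, and the counting intervals of the ratios above do not cover the spread between cells. Without the high cells the medians over the genes compared were 0.889 and 0.865. The shares in macrophage-gated cells were 5.93%, 2.39% and 4.47%, so ZC3 did not lead there.

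The immediate early genes of monocyte-gated cells had a ZC1 over ZC3 median of 1.00, where 2.7% of genes were at least 2-fold higher. Egr1 was the only member past 2-fold, at 76.9 against 32.8 CPM (2.34, 1.54 to 3.6), with Zfp36 at 875 against 480 CPM (1.82) next and Gadd45b at 103 against 176 CPM (0.586) lowest. For ZC2 the median was 0.797 with none past 2-fold, where 1.35% of genes were at least 2-fold higher. The summed level in CD8 T-gated cells (58, 50 and 40 cells) was 7549, 6312 and 6045 CPM for immediate early genes and 5906, 7157 and 9393 CPM for heat shock genes. The median CD8 T-gated cell held 7934, 6592 and 7126 CPM of the immediate early genes and 5439, 5713 and 5659 CPM of the heat shock genes. These medians did not follow the steady order of the sums. Median depth was 5590.5, 11420 and 9498.5 UMIs, and the median mitochondrial share 4.82%, 3.82% and 3.67%. The part of these differences in the sums was not tested.

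**Figure D5:**
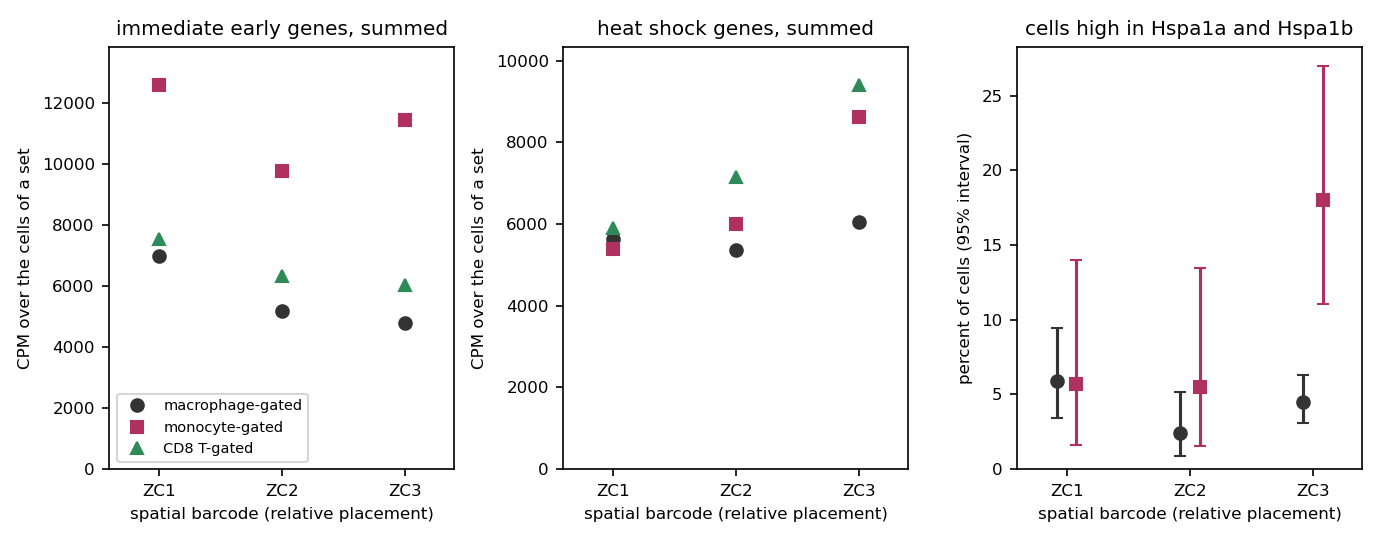
Summed CPM of the immediate early genes (left) and heat shock genes (middle) and the percent of cells high in Hspa1a and Hspa1b with 95% intervals (right), by spatial barcode under relative placement, for macrophage-gated, monocyte-gated and, in the left and middle panels, CD8 T-gated cells. Immediate early levels fall from 6986 to 4791 CPM in macrophage-gated cells, and 18.0% of ZC3 monocyte-gated cells are high.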

How the data were processed

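Gene and spatial barcode counts were used as deposited: unnormalized UMI counts per barcode, made by the authors with Cell Ranger 4.0.0 on mm10, per the submitters' processing notes. The matrix holds 1 library of each kind, with barcodes near empty included. Cells were kept at 1000 UMIs, 500 genes and 10% mitochondrial UMIs, and free RNA was read from 68497 barcodes of 10 to 100 UMIs. UMIs were summed over the cells of a class and scaled to CPM. Ratios carry exact conditional binomial intervals and levels exact Poisson intervals, with shares by the exact Clopper-Pearson method. Summing weights deep cells more, and free RNA was not subtracted. The calculation was tested on simulated data. Python 3.11.15, with scipy 1.17.1 for intervals, scanpy 1.11.5 for clusters and numpy 2.4.6 and pandas 2.3.3 for tables, was used.

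Members, related gene lists and class limits were chosen with earlier results of these data known. In each comparison, members past 2-fold are named, otherwise the 3 highest and 3 lowest of each arm, and up to 2 highest and 2 lowest of a related list. With 1 library there was no replicate, so no test was run. Alternatives were clusters in place of gates, other filters on cells and genes, other weights, other placements and free RNA subtraction.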

Additional observations from a re-analysis of the deposited data

How the results depend on the processing

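Values are log2 median ratios. For macrophage-gated over monocyte-gated cells, clusters in place of gates gave -0.52 for immediate early genes (-1.03 as reported). The clusters labelled monocyte, of 491 and 255 cells, held the C1q genes at 6710 and 1618 CPM, against 245 CPM in monocyte-gated cells. That alternative thus compares a class richer in C1q. For the gated classes, leaving out cells at 1000 CPM of Hspa1a and Hspa1b, chosen after seeing the data, gave 0.36 for heat shock genes (-0.08). For CD8 T-gated over macrophage-gated cells the heat shock value of 0.42 was 0.36 with clusters, 0.47 at no more than 5% mitochondrial UMIs, 0.17 at 5000 to 40000 UMIs, 0.0098 with cells weighted equally, 0.34 without the top cell of each gene and 0.47 without cells at 1000 CPM. Between checkpoint-high and checkpoint-low cells it went from 0.44 to 0.19 with cells weighted equally. For macrophage-gated cells of ZC1 over ZC3 the immediate early value of -0.35 was 0.93 with clusters and 0.54 with relative placement. For ZC2 over ZC3 the heat shock value of -0.25 was -1.16 at 30 counts and 4 times the next, on 1 cell against 512. Except where fewer cells were placed, the cause was not tested. No paired analysis was possible because there is 1 library and no result comes from a test. Depth limits Egr3, which among the class and barcode comparisons was compared between macrophage-gated and monocyte-gated cells only.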
